A study of Mus musculus with 12 samples.

Results

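Messenger RNAs reach axons in granules built by RNA-binding proteins, and 9 genes for such proteins were followed here: Igf2bp1, Fmr1, Hnrnpr, Elavl4, Smn1, Tardbp, Khsrp, Sfpq and Hnrnpa2b1. They were chosen by name for their known part in moving, shielding or decaying axonal mRNA, not for their values. Counts were available in both compartment tables for 8 of the 9 genes, out of 16617 named genes listed in both. These 8 genes were listed with 27 transcripts, and Igf2bp1, the zipcode-binding protein of β-actin mRNA, was not analysed here.

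The libraries were made from dorsal root ganglion (DRG) neurons, the sensory neurons whose cell bodies lie beside the spinal cord. Total DRGs of 1 adult C57B6 mouse were dissociated for each culture, spun over a Percoll cushion and grown for 3 days on coated inserts whose membrane has 1 µm pores, so that neurites and cell bodies were collected from different faces. The groups were GAR+/- (het) neurites, GAR+/+ (WT) neurites, het soma and WT soma, with 3 libraries each. The series concerns nucleolin, an RNA-binding protein that carries a glycine- and arginine-rich (GAR) domain, and all cells came from whole ganglia with no sort for neurons. The kit was stranded and removed ribosomal RNA from the total RNA, and the 12 libraries held between 14965973 and 32434916 counts.

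Axonal mRNA transport works through proteins that read short elements of an mRNA, usually in its untranslated regions, pack it with others into a granule and hand it to motor proteins. Once at the growth cone or axon shaft, the mRNA can be released for local translation, and in sensory axons such local synthesis is known to support growth and the response to injury. Most of the proteins described here also act in the nucleus, in splicing or in transcription, or in mRNA decay.

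The counts of each gene were summed over its transcripts and are given as CPM (each count relative to its library total), scaled between libraries with the trimmed mean of M values (TMM). Tests used edgeR's quasi-likelihood F test across 15990 genes with Benjamini-Hochberg adjustment, and a gene was called at an adjusted p under 0.05. Per the labels the 3 libraries of a group are independent biological repeats.

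The fractions were checked against marker genes before the members were read. All 12 neuronal markers tested had a negative neurites-over-soma log2 fold change with a median of -0.33, and 5 of the 12 were called lower in neurites. Their summed level was 10361 to 13640 CPM in het neurites and 8717 to 12088 CPM in WT neurites, against 13257 to 16398 CPM in het soma and 12001 to 14063 CPM in WT soma. Satellite glia markers were called higher in neurites for 4 of 9 genes (median 0.51) and Schwann cell markers for 4 of 9 genes (median 0.43), and no gene of either list was at 0 in any library. Of 6 nuclear RNAs tested, 2 were called lower in neurites, Rian and Miat, and the summed level of the list was 4855 to 10142 CPM in het neurites and 6280 to 10183 CPM in WT neurites, against 8275 to 9213 CPM in het soma and 8116 to 10691 CPM in WT soma. Proliferation markers were called higher in neurites for 3 of 12 genes (median 0.46) and fibroblast markers for 1 of 8 genes (median 0.12). Among macrophage markers 1 of 4 tested was called lower, and among endothelial markers 0 of 4 were called. The neurite libraries held RNA of glia, of other non-neuronal cells and of nuclei as well as neuronal RNA. The part of any of these in the differences below was not tested.

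The members' transcripts differed in what the tables listed of them. GENCODE release M21 on GRCm38 annotates 104 transcripts for the 9 genes, of which 31 were listed in either table and 27 in both. Tardbp, Khsrp and Hnrnpa2b1 were each represented by a single coding transcript. For Sfpq, 1 coding transcript held 88.9% of the counts and 5 transcripts without an open reading frame held the other 11.1%. For Fmr1 none of the 6 annotated coding transcripts was listed in both tables, and all 6 listed transcripts were of a non-coding type, 5 of them annotated as retaining an intron. The 31 listed transcripts, none of them of Igf2bp1, had a median of 216 nucleotides found in no other annotated transcript of the same strand. The median was 0 for the unlisted transcripts of the 9 genes, of which 60 of 73 had under 100. A value for Fmr1 is therefore made of the counts given to its intron-retaining and truncated transcripts. Unlisted coding transcripts of the other genes have no counts of their own here. The listed coding transcripts of Hnrnpa2b1, Smn1 and Tardbp have only 0, 6 and 23 nucleotides found in no other transcript. Their counts may therefore hold reads of coding transcripts that were not listed.

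A pair of these listed non-coding transcripts is shown because the largest difference among the called member transcripts rests on the first and the second carried the most Fmr1 counts. The Sfpq transcript ENSMUST00000144630 (600 nucleotides) contains the end of exon 6 of the coding transcript and ends after 387 bases of the 541-base intron 6. The Fmr1 transcript ENSMUST00000127954 (1333 nucleotides) contains the end of exon 3 and ends after 900 bases of the 3419-base intron 3. Each line gives the last 40 exonic bases in capitals and the first 217 intronic bases in lower case, 5′ to 3′ on the plus strand of GRCm38, read from the GENCODE M21 transcripts. The Sfpq stretch lies at chr4:127026188-127026444 and the Fmr1 stretch at chrX:68691555-68691811.
Sfpq ENSMUST00000144630: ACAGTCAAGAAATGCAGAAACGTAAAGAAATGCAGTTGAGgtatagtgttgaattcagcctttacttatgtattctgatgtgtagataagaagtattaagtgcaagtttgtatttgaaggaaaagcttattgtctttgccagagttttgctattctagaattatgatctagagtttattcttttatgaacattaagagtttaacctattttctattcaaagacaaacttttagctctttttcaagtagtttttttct
Fmr1 ENSMUST00000127954: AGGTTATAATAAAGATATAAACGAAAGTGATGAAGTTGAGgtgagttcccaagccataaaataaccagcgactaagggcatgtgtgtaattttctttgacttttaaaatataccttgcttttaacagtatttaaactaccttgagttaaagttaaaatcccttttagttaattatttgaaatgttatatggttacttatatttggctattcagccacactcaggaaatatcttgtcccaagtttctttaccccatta
In frame with the coding transcript, the first stop codon begins at intronic base 47 in Sfpq and at intronic base 22 in Fmr1. The 217 intronic Sfpq bases are the only ones of ENSMUST00000144630 that no other listed Sfpq transcript contains.

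Per kilobase of transcript, the members spanned a wide range of levels. The CPM of each transcript was divided by its own length and then summed per gene, so short transcripts weigh more than their counts. Sfpq had a mean of 69.7 CPM per kilobase over the 12 libraries and Hnrnpa2b1 60.7, and the library ranges of these genes overlapped. The Sfpq value includes its 5 non-coding transcripts of 600 to 967 nucleotides. They held 11.1% of its counts but weigh more in this sum than the coding transcript of 3465 nucleotides does per count. Khsrp followed at 37.0 CPM per kilobase, with no library overlapping the neighbour above or below it. Hnrnpr (6.58), Elavl4 (6.20), Fmr1 (5.88), Smn1 (5.68) and Tardbp (4.19) came after it, and each overlapped its neighbours in this order. For Elavl4, 48.6% of the counts fell on ENSMUST00000142722, of 488 nucleotides, and Fmr1 was read from non-coding transcripts alone. For Hnrnpr, 30.3% of the counts fell on 3 non-coding transcripts, including 16.0% on ENSMUST00000153505, of 473 nucleotides. The main Hnrnpr coding transcript ENSMUST00000148843 held 68.4% of the counts and has 21452 nucleotides. Per count, ENSMUST00000153505 therefore weighs more in this sum than that coding transcript. In CPM not divided by length, Tardbp averaged 31.3, Hnrnpr 14.8, Fmr1 7.35, Smn1 6.67 and Elavl4 4.60. The order of these genes therefore depends on the measure. The 3 high members are abundant nuclear proteins in most cell types, while Elavl4 is a neuronal one.

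**Figure D1:**
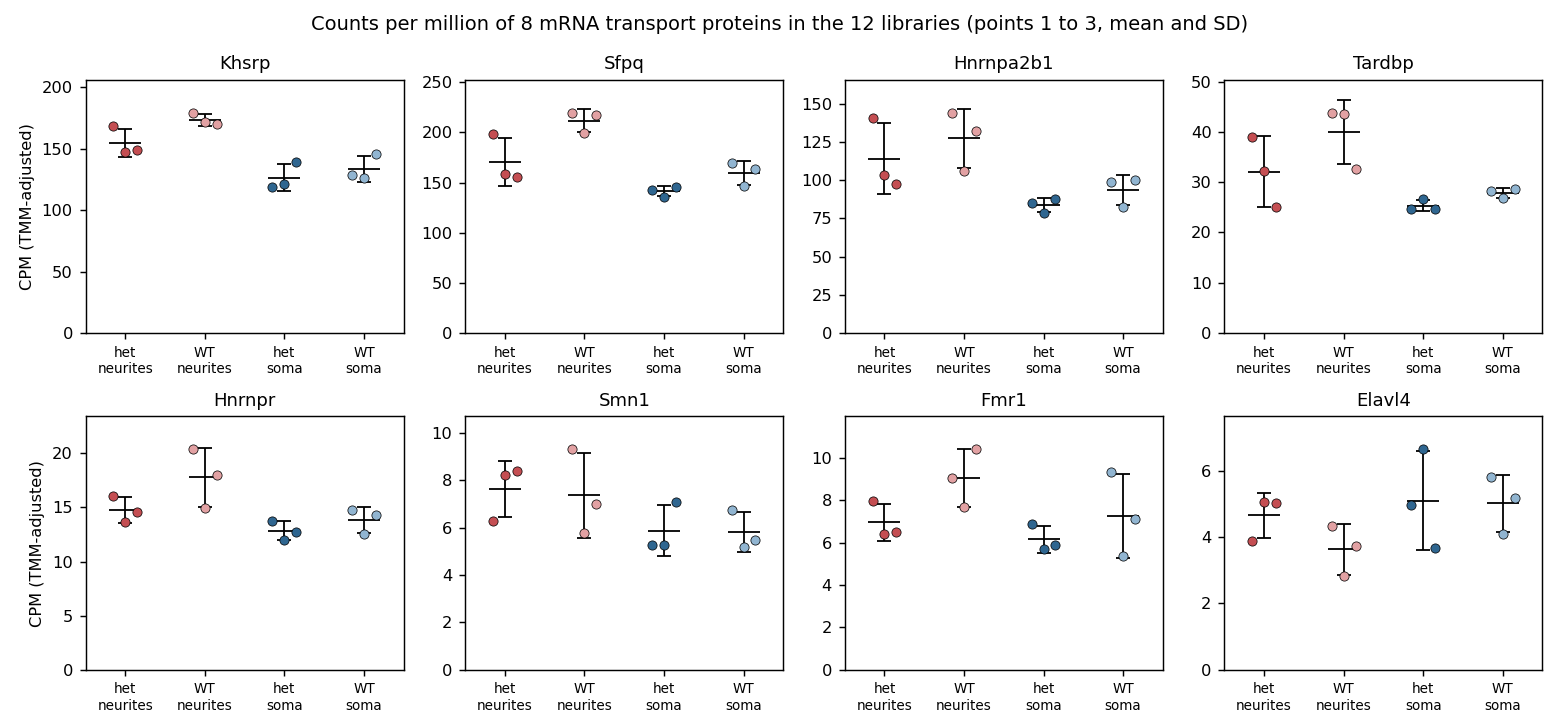
CPM (vertical axis, linear from 0) of the 8 members in het neurites, WT neurites, het soma and WT soma; each point is 1 library in the order of its number, the line is the mean and the bar the SD (n = 3). Khsrp is the member whose 6 neurite libraries (147.3 to 179.2) all lie above its 6 soma libraries (119.2 to 145.9), and for the low members Smn1 and Elavl4 every pair of groups overlaps, while for Fmr1 the WT neurite libraries (7.67 to 10.4) lie above the het soma libraries (5.71 to 6.88).

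The first comparison asked which of these mRNAs differed in level between neurites and soma over both genotypes. Of the 8 members tested, 4 were called higher in neurites and 0 lower, while 12.2% of all genes were called, 7.33% higher and 4.87% lower. Those 4 were Hnrnpa2b1, Tardbp, Khsrp and Sfpq, by 1.26- to 1.36-fold. The median log2 fold change over the 8 members was 0.34, beside a median of -0.003 over all genes tested. In bulk libraries, fewer cells of a type and less RNA per cell cannot be told apart.

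Khsrp (chr17:57021051-57031522, minus strand) encodes KSRP, a KH-domain protein that binds AU-rich elements and promotes decay of the mRNAs that carry them, Gap43 mRNA among them. It stood at 168.1, 147.3 and 148.6 CPM in het neurites and 179.2, 171.6 and 169.8 CPM in WT neurites, against 119.2, 120.9 and 138.8 CPM in het soma and 128.3, 126.1 and 145.9 CPM in WT soma. All 6 neurite libraries lay above all 6 soma libraries, which 4.22% of all genes did in either direction. The log2 fold change was 0.34 ± 0.07 (SE), or 1.26-fold, with an adjusted p of 0.0060 in edgeR's quasi-likelihood test.

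Sfpq (chr4:127021324-127037013, plus strand) encodes a splicing factor that in rodent sensory axons is known to gather mRNAs for axon survival into one granule. Its levels were 198.0, 158.0 and 155.1 CPM in het neurites and 219.5, 198.9 and 216.9 CPM in WT neurites, against 142.9, 136.0 and 145.6 CPM in het soma and 169.3, 146.2 and 163.6 CPM in WT soma. Within each genotype every neurite library exceeded every soma library, and the overlap over both genotypes came from het neurites and WT soma. The log2 fold change was 0.34 ± 0.07 (SE), with an adjusted p of 0.0092 in edgeR's quasi-likelihood test.

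Hnrnpa2b1 (chr6:51460932-51469894, minus strand) encodes the protein that reads the hnRNP A2 response element and carries mRNAs such as that of myelin basic protein. It was measured at 140.9, 103.7 and 97.8 CPM in het neurites and 144.2, 106.3 and 132.3 CPM in WT neurites, against 85.4, 78.4 and 87.5 CPM in het soma and 98.6, 82.4 and 100.4 CPM in WT soma. Replicate 1 was the highest neurite library in both genotypes, and the third het neurite library lay within the WT soma range under the gene-level scaling. Under the transcript-level scaling, its single transcript had 101.5 CPM in that library, against at most 100.5 CPM in a soma library, so this overlap depended on the scaling. It was higher in neurites by 0.44 ± 0.10 (log2, SE), or 1.36-fold, with an adjusted p of 0.0108 in edgeR's quasi-likelihood test.

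Tardbp (chr4:148612382-148627019, minus strand) encodes TDP-43, a nuclear RNA-binding protein that also travels with mRNA along axons and forms aggregates in amyotrophic lateral sclerosis. Its values were 39.1, 32.2 and 25.1 CPM in het neurites and 43.8, 43.6 and 32.7 CPM in WT neurites, against 24.7, 26.6 and 24.8 CPM in het soma and 28.1, 26.8 and 28.7 CPM in WT soma. WT neurites lay wholly above both soma groups, while the third het neurite library fell among the soma values. The log2 fold change was 0.43 ± 0.11 (SE), or 1.35-fold, with an adjusted p of 0.0166 in edgeR's quasi-likelihood test.

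The other 4 members were not called in this comparison. Hnrnpr (chr4:136310942-136359447, plus strand), which encodes a partner of SMN that binds β-actin mRNA in motor axons, averaged 14.8 ± 1.2 CPM in het neurites and 17.8 ± 2.7 CPM in WT neurites, against 12.8 ± 0.9 CPM in het soma and 13.9 ± 1.2 CPM in WT soma (SD, n = 3 each). Its log2 fold change was 0.28 ± 0.10 (SE) with an adjusted p of 0.071 in edgeR's test. Leaving out WT neurite replicate 2, its lowest WT neurite library, gave 0.33 with an adjusted p of 0.0228 in edgeR's test. With every library kept, Hnrnpr was called with the replicate number as a block, by DESeq2 and with all named transcripts summed. The side of the threshold on which Hnrnpr fell thus depended on 1 library and on the method.

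Smn1 (chr13:100124852-100137690, plus strand), whose protein assembles small nuclear ribonucleoproteins and whose loss causes spinal muscular atrophy, averaged 7.63 ± 1.19 CPM in het neurites and 7.36 ± 1.79 CPM in WT neurites, against 5.88 ± 1.06 CPM in het soma and 5.81 ± 0.84 CPM in WT soma (SD, n = 3 each). The log2 fold change of 0.36 ± 0.14 (SE) was as large as those of Khsrp and Sfpq but had an adjusted p of 0.112 in edgeR's test, and its counts ran from 86 to 214 per library. Without WT neurite replicate 2 it was 0.43 with an adjusted p of 0.0481.

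Fmr1 (chrX:68678541-68717963, plus strand), which encodes the translational repressor FMRP lost in fragile X syndrome, averaged 6.96 ± 0.87 CPM in het neurites and 9.03 ± 1.36 CPM in WT neurites, against 6.15 ± 0.63 CPM in het soma and 7.26 ± 1.98 CPM in WT soma (SD, n = 3 each). Its log2 fold change was 0.25 ± 0.14 (SE), with an adjusted p of 0.272 in edgeR's test. These values come from its non-coding transcripts.

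Elavl4 (chr4:110203722-110351909, minus strand), which encodes the neuronal protein HuD that stabilises Gap43 mRNA, was the one member with a lower mean level in neurites of both genotypes. It averaged 4.66 ± 0.68 CPM in het neurites and 3.63 ± 0.76 CPM in WT neurites, against 5.10 ± 1.49 CPM in het soma and 5.02 ± 0.86 CPM in WT soma (SD, n = 3 each). The log2 fold change of -0.30 ± 0.17 (SE) was not called (adjusted p = 0.265 in edgeR's test), and it stood beside the median of -0.33 over the 12 neuronal markers.

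The 4 called members passed in each of the 12 fits that left out 1 library, and 4 to 6 members passed in these fits. Over the same libraries Ncl, which encodes nucleolin, was higher in neurites by 0.65 ± 0.09 (log2, SE; adjusted p = 0.00069 in edgeR's test), with no overlap between the 6 neurite and the 6 soma libraries.

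**Figure D2:**
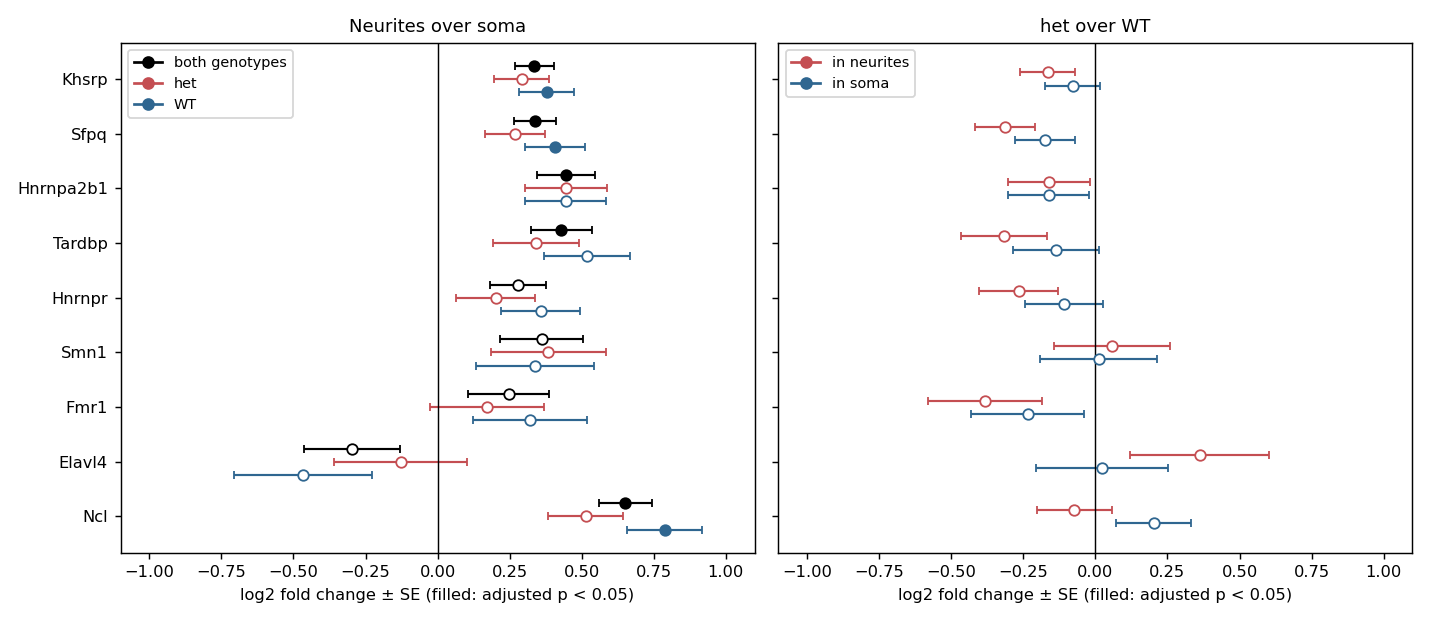
Log2 fold change (horizontal axis) with its SE for the 8 members and Ncl, left for neurites over soma in both genotypes, het and WT, right for het over WT in neurites and in soma; filled points had an adjusted p under 0.05 in edgeR's quasi-likelihood test. Of the members, 7 of 8 lie right of 0 in the left panel for both genotypes together, Elavl4 lies left, and no member is filled in the right panel.

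Taken within one genotype, with 3 libraries a side, fewer members passed. In WT cultures 2 of 8 members were called, both higher in neurites, while 3.1% of all genes were called and 2.41% were called higher. These were Khsrp, with a log2 fold change of 0.38 ± 0.10 (SE; adjusted p = 0.0452), and Sfpq, with 0.41 ± 0.10 (adjusted p = 0.0479, both in edgeR's test). The WT neurite and WT soma libraries did not overlap for 5 members, Khsrp, Sfpq, Tardbp, Hnrnpa2b1 and Hnrnpr, while 22.3% of all genes did not overlap. Tardbp (0.52 ± 0.15, SE) and Hnrnpa2b1 (0.44 ± 0.14) missed the threshold, with adjusted p of 0.0732 and 0.102 in edgeR's test.

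The same-numbered WT neurite and WT soma libraries deviated together, and with the replicate number as a block 4 of 8 WT members were called, while 9.31% of all genes were called in that fit. In that edgeR fit the adjusted p was 0.0155 for Sfpq, 0.0164 for Hnrnpa2b1, 0.0218 for Tardbp and 0.0259 for Khsrp. Without the block, the calls of Khsrp and of Sfpq were both lost when any 1 of 9 libraries was left out: any soma library of either genotype, WT neurite replicates 1 and 3, or het neurite replicate 2. Over all 12 such fits the adjusted p of Khsrp was 0.0410 to 0.200 and that of Sfpq 0.0260 to 0.217.

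In het cultures 0 of 8 members were called by edgeR, while 0.638% of all genes were called. An unadjusted p under 0.05 was reached by 4 of 8 members and by 2301 of the 15990 genes tested. DESeq2's Wald test likewise called 0 members. The log2 fold changes were 0.45 ± 0.14 (SE) for Hnrnpa2b1, 0.34 ± 0.15 for Tardbp, 0.29 ± 0.10 for Khsrp and 0.27 ± 0.10 for Sfpq, with adjusted p of 0.169, 0.312, 0.185 and 0.255 in edgeR's test. The het neurite and het soma libraries did not overlap for Hnrnpa2b1, Khsrp and Sfpq, 3 of 8 members, while 22.3% of all genes did not overlap.

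The interaction tests whether the neurites-over-soma difference itself differed between het and WT. It was called by edgeR for 0 of 8 members and for 0% of all genes, and 0 members and 202 of all genes had an unadjusted p under 0.05. DESeq2's Wald test called 0 genes. The interaction was -0.18 ± 0.21 (log2, SE) for Tardbp, -0.14 ± 0.15 for Sfpq, -0.09 ± 0.14 for Khsrp and 0.0012 ± 0.20 for Hnrnpa2b1. A call in WT and none in het is therefore not shown to be a difference between the genotypes.

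Single transcripts were then tested in the same way across 29102 transcripts, 25 of the 27 member transcripts among them. Over both genotypes 5 member transcripts were called, all higher in neurites, while 7.14% of all transcripts were called and 4.65% were called higher. Among them were the coding transcripts of Hnrnpa2b1, Khsrp, Tardbp and Sfpq, with log2 fold changes of 0.45, 0.35, 0.44 and 0.32. The fifth was the intron-ending Sfpq transcript ENSMUST00000144630, whose 217 intronic bases are printed above, with the largest difference of any member transcript called. The calls of the Sfpq coding transcript ENSMUST00000030623 were lost without het neurite replicate 1 (adjusted p = 0.0644 in edgeR's test) or het soma replicate 2 (0.0584), and that of the Tardbp transcript without het neurite replicate 1 (0.0608).

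The Sfpq transcript ENSMUST00000144630 stood at 11.3, 8.41 and 7.78 CPM in het neurites and 15.4, 12.7 and 10.2 CPM in WT neurites, against 5.22, 4.25 and 2.83 CPM in het soma and 5.05, 4.69 and 5.30 CPM in WT soma. All 6 neurite libraries lay above all 6 soma libraries, and the share of all transcripts that did so was not computed. Over both genotypes ENSMUST00000144630 was higher in neurites by 1.24 ± 0.15 (log2, SE), or 2.36-fold, with an adjusted p of 5.52e-05 in edgeR's test. The Sfpq coding transcript ENSMUST00000030623 was higher by 1.25-fold in the same libraries.

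It was also the one member transcript called within each genotype. In WT the log2 fold change was 1.34 ± 0.22 (SE; adjusted p = 0.0025 in edgeR's test), where 1.58% of transcripts were called, and in het it was 1.14 ± 0.22 (adjusted p = 0.0203), where 0.512% were. With the replicate number as a block, 5 of 25 member transcripts were called in WT, while 4.94% of all transcripts were called in that fit. The het call was lost without het neurite replicate 1 (log2 fold change 0.96), het soma replicate 2 (1.14) or het soma replicate 3 (0.93).

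**Figure D3:**
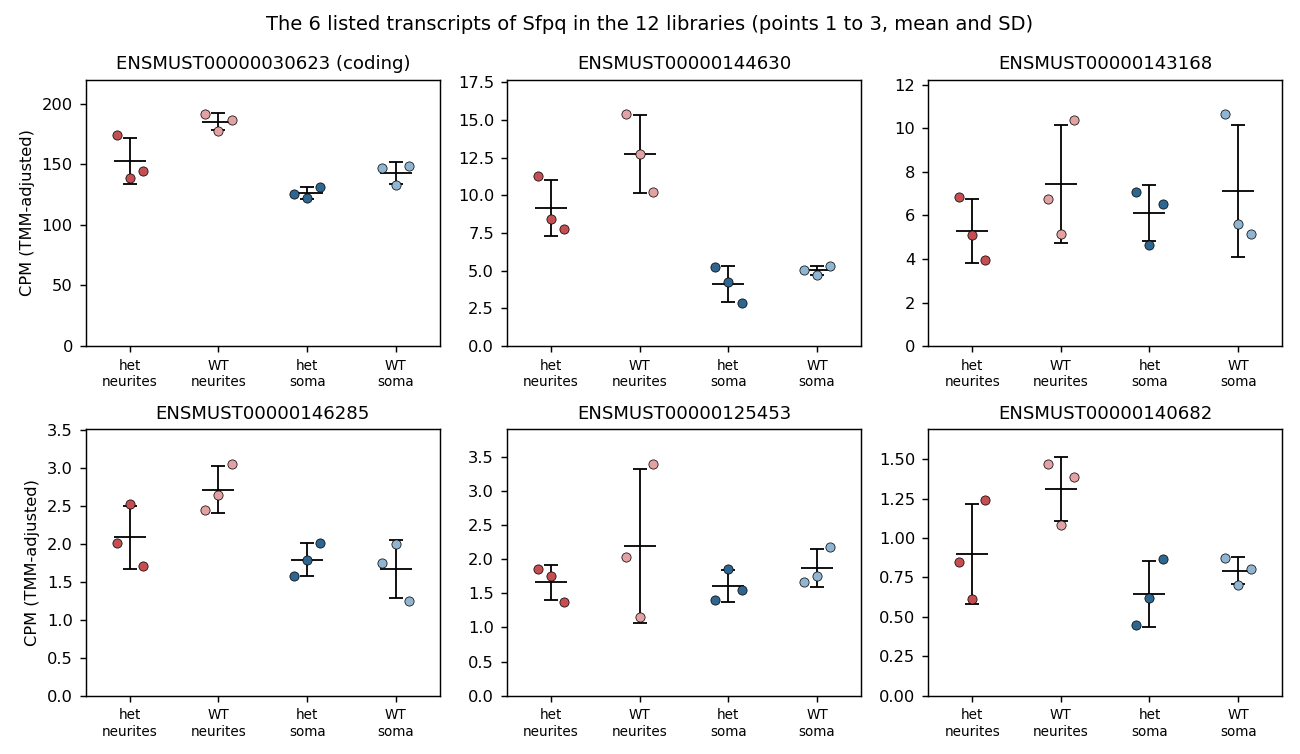
CPM (vertical axis, linear from 0) of the 6 listed Sfpq transcripts in the 4 groups, each point 1 library, with mean and SD (n = 3). ENSMUST00000144630 lies between 7.78 and 15.4 in the neurite libraries and between 2.83 and 5.30 in the soma libraries; the coding transcript ENSMUST00000030623 carries most counts.

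As a share of the Sfpq counts, ENSMUST00000144630 made up 5.30 ± 0.44% in het neurites and 6.04 ± 1.16% in WT neurites, against 2.93 ± 0.89% in het soma and 3.15 ± 0.11% in WT soma (SD, n = 3 each). Its difference was tested against the rest of its gene with edgeR's diffSpliceDGE, in which 0.063% of the 19042 transcripts tested over both genotypes had a changed use, 12 in all. ENSMUST00000144630 was one of these, with a relative log2 fold change of 0.62, and no other member transcript was called. Its adjusted p of 0.00253 was tied with those of a Pkm and a Syngr1 transcript. Without het soma replicate 3 the value was 0.54 and the adjusted p 0.0592. In WT alone 0 member transcripts were called for use by edgeR, where 0.0105% of all were, while ENSMUST00000144630 was called with the block (0.64, adjusted p = 0.0363), where 0.0525% of all were. In het alone 0 were called, where 0% of all were.

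The other 4 non-coding Sfpq transcripts did not behave alike. ENSMUST00000143168, the most abundant of them, had a log2 fold change of -0.07 ± 0.22 (SE) and an adjusted p of 0.904 in edgeR's test, and ENSMUST00000146285 had 0.47 ± 0.18 with an adjusted p of 0.139. ENSMUST00000140682 and ENSMUST00000125453 were at 0.61 ± 0.26 and 0.16 ± 0.22, neither called. Across all genes, transcripts annotated as processed, the type of ENSMUST00000144630, had a median log2 fold change of -0.01, and 1.83% of the 2739 tested were called higher in neurites.

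Intron-retaining transcripts of 2 further members came close to the threshold. Hnrnpr ENSMUST00000153505 averaged 2.58 CPM in het neurites and 3.21 CPM in WT neurites, against 1.75 CPM in het soma and 2.13 CPM in WT soma, a log2 fold change of 0.57 ± 0.17 (SE; adjusted p = 0.0520 in edgeR's test). Fmr1 ENSMUST00000127954, the second transcript printed above, averaged 2.98 CPM in het neurites and 2.94 CPM in WT neurites, against 1.75 CPM in het soma and 2.22 CPM in WT soma, a log2 fold change of 0.59 ± 0.19 (adjusted p = 0.0590). Neither had a changed use within its gene. The other retained-intron transcript of Hnrnpr, ENSMUST00000182327, had -0.10 ± 0.23 (adjusted p = 0.856 in edgeR's test). The Hnrnpr coding transcript ENSMUST00000148843 had 0.26 ± 0.11 (0.186). Of 6603 transcripts of the retained-intron type, 2.64% were called higher in neurites and their median log2 fold change was 0.03.

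The remaining transcripts of Fmr1 and Elavl4 spread on both sides of 0. For Fmr1 the other 5 ran from -0.15 for ENSMUST00000148348 to 0.51 for ENSMUST00000146177. For Elavl4, ENSMUST00000142722 held 43.8 to 52.1% of the counts in the group means and had a log2 fold change of -0.42 ± 0.23 (SE), while ENSMUST00000106601 had 0.17 ± 0.31, neither called by edgeR. ENSMUST00000106598 had the largest fitted Elavl4 difference, -1.12 ± 0.52, at levels of 0 to 0.624 CPM in a library, and was not called (adjusted p = 0.219 in edgeR's test).

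The second set of comparisons asked whether het cultures differed from WT cultures. The allele itself could not be checked from these counts, since Ncl is summed over the whole gene. Ncl stood at 425.9, 382.2 and 332.2 CPM in het neurites, against 463.3, 414.8 and 321.5 CPM in WT neurites, and at 250.7, 257.9 and 290.2 CPM in het soma, against 217.5, 237.3 and 239.4 CPM in WT soma. For Ncl, het over WT came to -0.07 ± 0.13 (log2, SE) in neurites and 0.20 ± 0.13 in soma, with adjusted p of 0.794 and 0.697 in edgeR's test, although the soma libraries did not overlap.

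In neurites 0 of 8 members were called by edgeR between het and WT, while 3.27% of all genes were called, 2.78% lower and 0.494% higher. DESeq2's Wald test called 0 members. The median log2 fold change over the members was -0.22, beside -0.01 over all genes tested. An unadjusted p under 0.05 was reached by 1 of 8 members, Sfpq, and by 3343 of the 15990 genes tested.

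Sfpq had the smallest p, at 198.0, 158.0 and 155.1 CPM in het neurites, against 219.5, 198.9 and 216.9 CPM in WT neurites. The groups did not overlap, by a margin of about 1 CPM between het replicate 1 and WT replicate 2, while 18.3% of all genes did not overlap. The log2 fold change was -0.31 ± 0.10 (SE; adjusted p = 0.104 in edgeR's test). Leaving out het neurite replicate 1 gave -0.44 with an adjusted p of 0.0200.

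Khsrp was the other member whose het neurites, at 147.3 to 168.1 CPM, lay wholly below WT neurites, at 169.8 to 179.2 CPM, with a log2 fold change of -0.17 ± 0.10 (SE; adjusted p = 0.342 in edgeR's test). Fmr1 (-0.38 ± 0.20), Tardbp (-0.32 ± 0.15), Hnrnpr (-0.27 ± 0.14) and Hnrnpa2b1 (-0.16 ± 0.14) had negative values with overlapping libraries. Elavl4 (0.36 ± 0.24) and Smn1 (0.06 ± 0.20) had positive ones.

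In the same comparison 8 of 12 proliferation markers were called lower in het neurites, with summed levels of 529 to 948 CPM in het neurites, against 1053 to 1782 CPM in WT neurites. Satellite glia markers were called lower for 3 of 9 genes, with sums of 888 to 1139 CPM in het neurites, against 1218 to 1363 CPM in WT neurites. Schwann cell markers were called lower for 3 of 9 genes, with sums of 1023 to 1124 CPM in het neurites, against 1336 to 1360 CPM in WT neurites. Neuronal markers went the other way, with 11 of 12 positive, a median log2 fold change of 0.24 and 1 called higher in het neurites. Their sums overlapped, at 10361 to 13640 CPM in het neurites and 8717 to 12088 CPM in WT neurites. The part of these cells in the members' values was not tested.

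In soma 0 of 8 members were called by edgeR between het and WT, while 0% of all genes were called. An unadjusted p under 0.05 was reached by 0 members and by 1464 of all genes, and DESeq2's Wald test called 320 genes and 0 members. Same-numbered het and WT soma libraries deviated together, and blocking on that number gave 520 called genes, 3.25% of all, and 0 called members. Sfpq stood at 142.9, 136.0 and 145.6 CPM in het soma, against 169.3, 146.2 and 163.6 CPM in WT soma, a log2 fold change of -0.17 ± 0.10 (SE). Tardbp had -0.14 ± 0.15, and in both genes the het soma libraries lay below all WT soma libraries, while 20.7% of all genes did not overlap. The other members lay between -0.24 for Fmr1 and 0.02 for Elavl4. Of the marker genes 0 were called between het and WT soma. All 12 proliferation markers had an unadjusted p under 0.05 in edgeR's test, with a median log2 fold change of -1.03. Their sums were 409 to 545 CPM in het soma, against 857 to 1148 CPM in WT soma. The median was -0.66 for satellite glia, -0.49 for Schwann cell and -0.56 for fibroblast markers, and 0.19 for neuronal markers. The part of these cells in the soma values was not tested.

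In the authors' deposited table, which tests each transcript between het and WT within a compartment, no member transcript had a false discovery rate under 0.05. The smallest p there was that of the Sfpq transcript ENSMUST00000144630 in neurites, at -0.47 (log2), a p of 0.0138 and a false discovery rate of 0.216 in the authors' deposited table.

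Genes with a pattern over the 12 libraries most like that of each member were found by the root mean square difference of centred log2 CPM over 7774 genes with a mean of at least 10 CPM. The closest pairs were Khsrp with Mcl1, at 0.055, Hnrnpr with Tdp2, at 0.059, and Sfpq with Mthfd1l, at 0.064. Mthfd1l was also the nearest to Hnrnpa2b1, at 0.103. Tardbp was nearest to Pnn (0.096), Smn1 to Rab7 (0.105), Fmr1 to Rassf1 (0.127) and Elavl4 to Anapc16 (0.184). Among the members themselves Sfpq and Hnrnpr were closest to each other, at 0.093, and Elavl4 stood farthest from the rest, at 0.428 from its nearest member, Smn1.

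Other genes of the pathway were read from 3 lists in the comparison of neurites with soma over both genotypes. Of 47 other RNA-binding proteins of mRNA transport and granules tested, 7 were called higher in neurites and 1 lower, with a median log2 fold change of 0.14. The 4 with the smallest p were Qk, which encodes the RNA-binding protein Quaking of glia, at 0.59 ± 0.08 (SE), Celf2, a splicing and decay factor, at 0.75 ± 0.15, Nono, the nuclear partner of SFPQ, at 0.29 ± 0.06, and Cyfip1, an FMRP-binding translational repressor, at 0.45 ± 0.12. Their adjusted p in edgeR's test were 0.000706, 0.0057, 0.0066 and 0.0256. The one gene called lower was Elavl2, a neuronal relative of Elavl4, at -0.38 ± 0.11 (adjusted p = 0.0310), named after its value was seen. Between 3 genes, without het soma replicate 2, and 14, without WT neurite replicate 2, of this list were called when 1 library was left out. In these 12 fits Qk, Celf2 and Nono were called throughout, while Cyfip1 was lost in 5 (without WT neurite replicates 1 or 3, WT soma replicate 3, het neurite replicate 1 or het soma replicate 2) and Elavl2 in 5 (without WT neurite replicate 1, WT soma replicates 1 or 2, or het soma replicates 1 or 2).

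Of 14 SMN complex and Sm core genes tested, 2 were called higher in neurites and 0 lower, with a median of 0.08. These were the Sm core genes Snrpd3, at 0.45 ± 0.08 (log2, SE; adjusted p = 0.0041 in edgeR's test), and Snrpd1, at 0.46 ± 0.10 (0.0083). Ddx20, the Gemin3 helicase, had 0.26 ± 0.08 (adjusted p = 0.0537) and Gemin2, the core partner of SMN, had -0.52 ± 0.21 (0.108).

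Of 13 mRNAs described as bound or carried by the members, 1 was called higher in neurites and 1 lower, with a median of -0.11. The higher one was Actb, the β-actin mRNA, at 0.35 ± 0.11 (log2, SE; adjusted p = 0.0444 in edgeR's test), and the lower one Nefl, the light neurofilament mRNA, at -0.47 ± 0.12 (0.0172). The Actb call was kept in only 3 of the 12 fits without 1 library, those that left out WT neurite replicate 2, WT neurite replicate 3 or het neurite replicate 2, and its adjusted p ran from 0.0223 to 0.118. The Nefl call was lost without het neurite replicate 1 (0.0503) or het soma replicate 2 (0.0572). From 0 to 5 genes of this list were called in these fits, and 6 with the replicate number as a block, 2 higher and 4 lower. Mapt, the tau mRNA, had -0.26 ± 0.09 (0.0628) and Kpnb1, the importin β1 mRNA, had 0.23 ± 0.08 (0.0680).

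**Figure D4:**
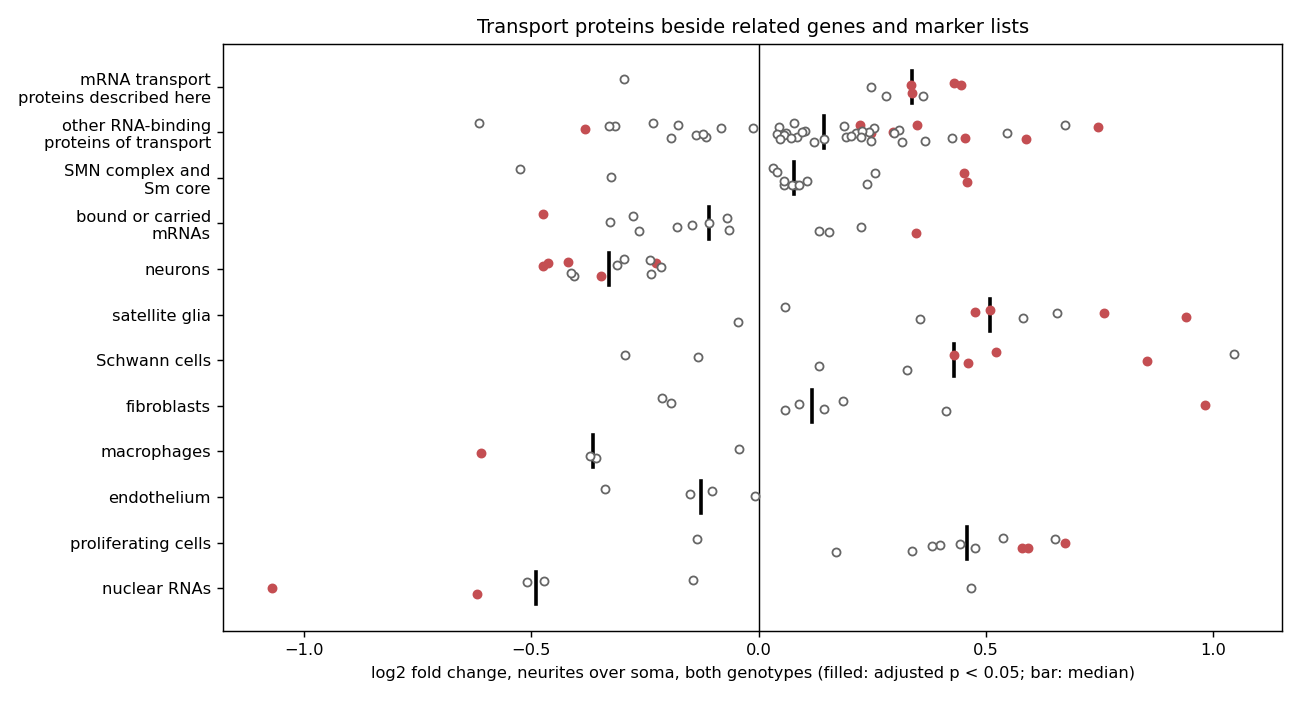
Log2 fold change of neurites over soma in both genotypes (horizontal axis) for each gene tested in the member list, 3 related lists and 8 marker lists; filled points had an adjusted p under 0.05 in edgeR's test and the bar is the list's median. The members' median is 0.34, that of satellite glia markers 0.51, of Schwann cell markers 0.43, of proliferation markers 0.46 and of neuronal markers -0.33.

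Between het and WT the lists gave few calls. In neurites Qk (-0.61 ± 0.12, log2, SE; adjusted p = 0.0222 in edgeR's test) and Ybx1, a stress granule protein (-0.61 ± 0.14; 0.0353), were called lower in het, and 0 genes of the SMN and bound-mRNA lists were called, with 1 and 4 at an unadjusted p under 0.05 and 0 and 1 called by DESeq2's Wald test. Of all 15990 genes tested, 3343 had an unadjusted p under 0.05 in neurites and 1464 in soma. The Qk and Ybx1 calls were both lost without any 1 of WT neurite replicates 1 and 3 and het neurite replicates 2 and 3, and with only the 2 groups in the fit (adjusted p of 0.120 for Qk and 0.0879 for Ybx1), and that of Ybx1 also without het soma replicate 3 or without TMM (0.0705). Over the 12 fits without 1 library, 0 to 3 of the RNA-binding proteins were called, and with the block 6 were, 3 higher and 3 lower. In soma 0 genes of the 3 lists were called by edgeR, 4, 0 and 0 had an unadjusted p under 0.05, DESeq2's Wald test called 1 of the RNA-binding proteins, and the smallest p of the RNA-binding proteins were again those of Qk (-0.48 ± 0.12; adjusted p = 0.144) and Ybx1 (-0.47 ± 0.14; 0.231). With the replicate number as a block both were called lower in het soma, with adjusted p of 0.0083 for Qk and 0.0355 for Ybx1 in edgeR's test.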

How the data were processed

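Raw counts per Ensembl transcript were taken as the authors deposited them in a table for each compartment, which hold transcripts with at least 5 counts in at least 3 of 6 libraries. Per the file headers each table also gives the authors' log2 fold change, p-value and false discovery rate for het over WT. The submitters' processing notes name CASAVA 1.8.2, edgeR and mm10 (GRCm38), and the aligner, counting program and annotation release are given in none of the sources used here. Of the per-library columns, 24 with normalized counts were not used.

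Counts of transcripts named in both tables (31420) were summed per gene, and the unnamed share was 0.574 to 0.694% of a library. Genes or transcripts passing filterByExpr were fitted with edgeR 4.0.16 (R 4.3.3): TMM scaling, 4 group means over 12 libraries, glmQLFit with robust dispersion and glmQLFTest, with 8 residual degrees of freedom before moderation and a common biological coefficient of variation of 0.163. Transcript use was tested with diffSpliceDGE, and calls were made at an adjusted p under 0.05. Neurite and soma counts shared one fit although the tables were filtered separately. The SE of a log2 fold change is its size over the root of the F statistic. Transcript types and coordinates came from GENCODE M21, in which 97.6% of transcript IDs were found.

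The labels give all groups replicate numbers 1 to 3 but do not say that a number marks a shared culture. Deviations from the group means over 7775 genes correlated between same-numbered WT neurite and WT soma libraries at 0.58, 0.59 and 0.40, and between het and WT soma libraries at 0.42, 0.56 and 0.21, so these numbers were taken to pair the samples. This pairing was inferred from the same counts and is not given by the labels, and the main tests did not use it. The values were 0.21, 0.52 and -0.24 between het neurites and het soma and 0.40, 0.49 and -0.12 between het and WT neurites, so those were not. The block fits over both genotypes, in het and between het and WT neurites still blocked those libraries by number.

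Alternatives were the replicate block, RLE size factors, no TMM, no filter, DESeq2 1.42.0, limma 3.58.1 voom, only the 2 groups compared, all named transcripts summed, and each library left out. The genes, lists and rules were chosen with earlier results of these data known. The rule named all members and Ncl in each comparison, up to 4 genes of smallest p per related list (2 where none passed), marker lists by counts and sums with 2 genes, and 1 gene of most alike pattern per member. The 3 counts that a value of 0 allows came to 0.0925 to 0.200 CPM per library, for counting error only.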

Additional observations from a re-analysis of the deposited data

How the results depend on the processing

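Over the 12 fits without 1 library each, the members called in neurites over soma were 4 to 6 over both genotypes, 0 to 3 in WT (2 in the full fit) and 0 in het, and 0 to 1 between het and WT in neurites. Member transcripts called were 3 to 7 over both genotypes, 1 to 2 in WT and 0 to 1 in het, and member transcripts with changed use over both genotypes 0 to 1. In WT, DESeq2 called 4 members, the fit without TMM 0 and the fit with only the 2 groups 0.

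With the replicate block, 6 members were called over both genotypes, Hnrnpr and Smn1 being added, 4 in WT, 1 in het (Hnrnpa2b1, adjusted p = 0.0315 in edgeR's test) and 1 between het and WT neurites (Sfpq, 0.0295). Member transcripts called with the block were 5 in WT and 2 in het, and 1 had a changed use in WT; over all transcripts the block gave 3379 calls over both genotypes (2077 without it), 1437 in WT (461) and 719 in het (149). Where the numbers pair the samples, the block changed no call of a member between het and WT soma; het neurites and het soma, and het and WT neurites, share only a number, and not every library there correlated best with its own number. Over both genotypes the block also called Ddx20 (0.0307), Mapt (0.0137) and Kpnb1 (0.0491). Hnrnpr was also called over both genotypes by DESeq2 and with all named transcripts summed.

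Genes called over both genotypes (1950) came to 3066 with the block and 1093 to 2746 without 1 library. In WT (495) the count was 1489 with the block, 1146 by DESeq2, 40 with only the 2 groups and 93 to 1081 without 1 library; in het (102) it was 671, 488, 230 with all transcripts summed, and 0 to 191 without 1 library. Between het and WT neurites (523) it was 1696 with the block, 1209 by DESeq2, 292 without TMM, 0 with only the 2 groups and 0 to 1767 without 1 library, and in soma (0) 520, 320 by DESeq2, 388 with only the 2 groups and 0 to 64.

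Some values turned direction under an alternative or without 1 library. Between het and WT soma, Smn1 was -0.0088 with voom and -0.0040 without TMM (0.011 in the full edgeR fit). The Hnrnpa2b1 interaction was -0.00052 with all transcripts summed, -0.014 with voom and -0.0086 with the block (0.0012 in the full fit). Without 1 library each, Ncl ran from -0.21 to 0.046 and Smn1 from -0.081 to 0.25 between het and WT neurites, Elavl4 from -0.21 to 0.21 and Smn1 from -0.14 to 0.14 between het and WT soma, and Elavl4 from -0.30 to 0.10 in neurites over soma in het. The interaction ran from -0.37 to 0.032 for Fmr1, -0.18 to 0.10 for Hnrnpa2b1, -0.15 to 0.0023 for Khsrp and -0.091 to 0.24 for Smn1. None of these was called, and the cause was not tested.

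Elavl4, Smn1 and Fmr1 had 42 to 267 counts in a library, and no call of these genes was made in the full edgeR fit, although Smn1 passed over both genotypes with the block (adjusted p = 0.0413) and without WT neurite replicate 2 (0.0481). Counting of transcripts that share sequence is not described in the sources used here, so reads of coding transcripts that were not listed may be missing or placed elsewhere.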
